A study of Mus musculus with 6 samples.

Results

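Atf4, 5 genes it is known to act on and 4 amino acid transporter subunits were measured in Müllerian ducts of mouse embryos with and without a Cre that acts on floxed alleles of the Hippo kinase genes Lats1 and Lats2. The 10 genes were Atf4, Ddit3, Trib3, Asns, Psat1, Phgdh, Slc7a5, Slc7a11, Slc3a2 and Slc1a5, taken by symbol from 19505 symbols on the array, with the brighter row where a gene had more than 1. All 10 had a row, and Ddit3 was the single gene with a second one. The Müllerian duct is the embryonic tube that forms the oviducts, uterus and upper vagina. The 3 mutant embryos had the genotype Lats1f/f,Lats2f/f,Amhr2cre/+ and the 3 control embryos the genotype Lats1f/f,Lats2f/f, all at E17.5, so both groups carried the floxed alleles and only the mutants carried Cre. Amhr2 is expressed in the duct's mesenchyme, so Cre is driven there and not in every cell of the dissected tissue, and the Cre allele occupies 1 copy of Amhr2. Total RNA of each duct was read on 1 Affymetrix array, and 3 arrays a group limit the precision.

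ATF4 is a transcription factor of the integrated stress response. Kinases that sense missing amino acids, misfolded protein, haem shortage or viral RNA phosphorylate the initiation factor eIF2, and translation of Atf4 mRNA then rises while that of most mRNAs falls. ATF4, often with a C/EBP partner, switches on genes for amino acid synthesis, amino acid uptake and tRNA charging, and with lasting stress also Ddit3 and Trib3. Since much of the control of ATF4 lies in translation, its mRNA level is not a measure of the protein.

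The array medians of the log2 signal lay between 6.87 and 6.95, and the medians of the background probes between 5.35 and 5.88. Lats1 was at 11.12, 11.77 and 11.60 in mutant ducts and at 12.51, 12.13 and 12.20 in control ducts (limma adjusted p = 0.0958), and Lats2 at 11.63, 11.95 and 11.32 in mutant against 11.49, 11.58 and 11.17 in control ducts (adjusted p = 0.684). Since no source used here places the probes on the floxed exons, these signals do not check the deletion. Amhr2 fell by 3.73 on the log2 scale (adjusted p = 0.000112). Of the duct's own markers, all 5 mesenchymal genes and 6 of 7 epithelial genes were above background on every array, whereas Lhx1 was below it on every array. Lhx1 was still called as higher in mutant ducts (log2 fold change 1.20, limma adjusted p = 0.0358). At such a signal its size cannot be read as that of a change in mRNA. Of the mesenchymal genes Hoxa10, Hoxa11 and Osr2 had log2 fold changes of -0.75, -1.09 and -0.69 that did not pass (adjusted p = 0.218, 0.0557 and 0.224), all 3 named after their values were seen. Wnt5a, named in the same way, went the other way at 0.14 and did not pass either (adjusted p = 0.814). Hoxa11 was called as lower with array weights, a trended and robust prior, the replicate number as a block, or dim rows left out. Without mutant 2, both Hoxa10 and Hoxa11 were called as lower. The array of control 3 stood apart: the summed linear signal of 6 urothelium markers was 25111 there, between 1703 and 1913 in mutant ducts, and 1679 and 2409 in control 1 and control 2. Across all 22206 transcript clusters 575 rose and 148 fell in mutant ducts at an adjusted p under 0.05, in a limma fit adjusted by the Benjamini-Hochberg method, which is 3.26% of the rows.

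The composite element at which ATF4 binds beside a C/EBP factor has the core TGATGNAA, and the promoters of 3 genes are shown because they hold these letters, Asns being the gene that rose. Of the 10 genes, 8 had an entry in the RefSeq promoter table (build GRCm38.p6), which spans 250 bases before to 50 bases after a gene's start. The core was searched on both strands, as TGATGNAA and as TTNCATCA. Capitals mark the matches. The Asns and Slc7a11 sequences end at the base before the start, and the Trib3 stretch lies inside the transcript. Asns is on the minus strand at chr6:7693210-7693459, Slc7a11 on the minus strand at chr3:50443614-50443863, and Trib3 on the minus strand at chr2:152344028-152344057.
Asns: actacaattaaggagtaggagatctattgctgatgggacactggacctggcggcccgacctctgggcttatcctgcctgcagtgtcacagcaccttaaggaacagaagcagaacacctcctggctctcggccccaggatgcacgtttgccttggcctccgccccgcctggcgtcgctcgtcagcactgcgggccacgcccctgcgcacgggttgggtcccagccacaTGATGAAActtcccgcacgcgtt
Slc7a11: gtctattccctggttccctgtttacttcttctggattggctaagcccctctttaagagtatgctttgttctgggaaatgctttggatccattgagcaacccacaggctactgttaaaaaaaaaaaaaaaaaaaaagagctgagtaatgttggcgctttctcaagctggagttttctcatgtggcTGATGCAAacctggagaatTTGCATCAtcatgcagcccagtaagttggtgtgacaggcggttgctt
Trib3: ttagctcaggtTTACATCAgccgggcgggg

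The Asns match began 23 bases before the start, and the Slc7a11 matches 66 and 47 bases before it, on opposite strands. The Trib3 match covered bases 15 to 22 of the transcript. The windows of Atf4, Ddit3, Phgdh, Slc3a2 and Psat1 (both of its entries) did not contain these letters. Of all 32851 windows in the table, 3.97% did. A match is a run of letters and not a measured binding site.

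Asns rose in mutant ducts, and none of the other 9 genes passed the test in either direction. The call was 1 of 10 genes, against 3.26% of all rows in either direction and 2.59% that rose. All rows include many dim ones, whereas 8 of the 10 genes were above background on every array. With rows under the median of mean signal left out, 924 rows were called against 723 before. The share called is thus above 3.26% among brighter rows, which limits this comparison and those of the lists below. Over the 10 genes the median log2 fold change was 0.26, against -0.01 over all transcript clusters, with 6 genes higher and 4 lower in mutant ducts. At an unadjusted limma p under 0.05 there were 4 of 10 genes, against 15.3% of all rows. The arrays of mutant and control ducts did not overlap for 4 genes, against 21.1% of all rows. Mutant arrays were all above control arrays for 3 of them, Asns, Slc3a2 and Atf4, against 10.9% of all rows, and all below for 1, Slc7a11, against 10.2%.

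**Figure D1:**
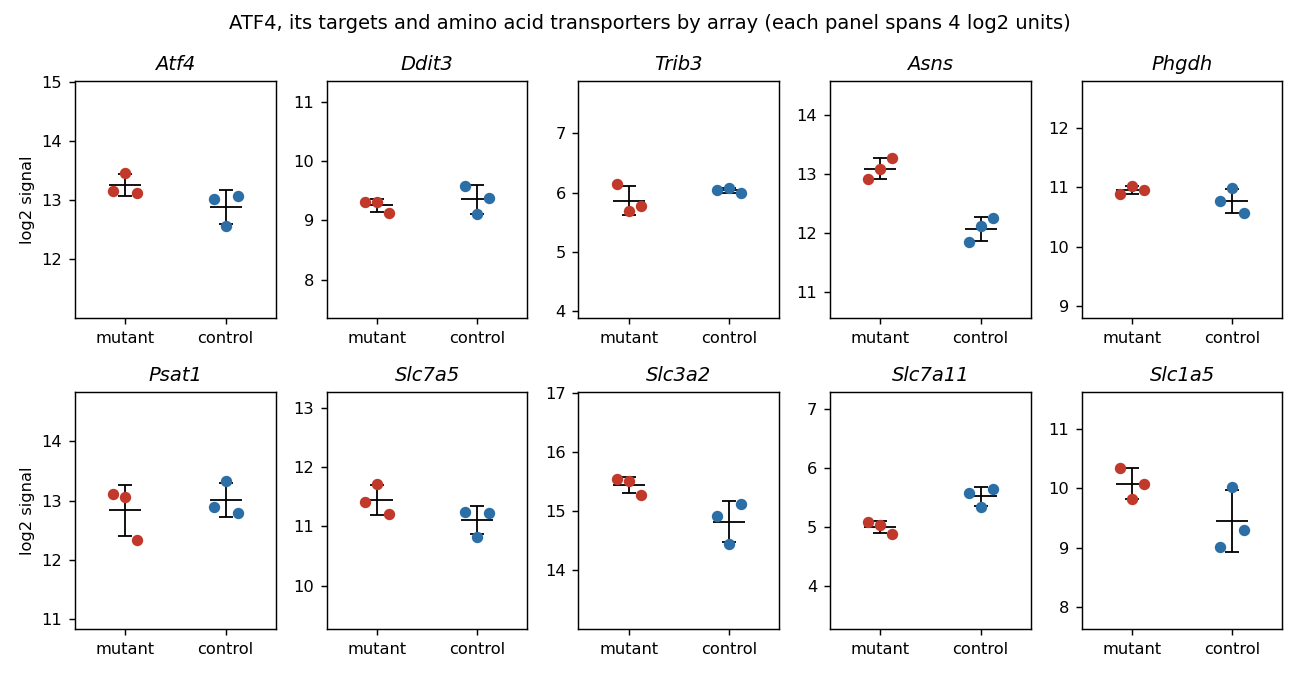
Log2 signal of the 10 genes on each array, with mutant ducts in red and control ducts in blue (points, 1 array each; bars, mean and SD, n = 3). Each panel spans the same 4 log2 units, and Asns has the widest gap between groups, with mutant arrays from 12.91 and control arrays up to 12.25.

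Asparagine synthetase, encoded by Asns, makes asparagine from aspartate and glutamine and is among the best known targets of ATF4. Its log2 signal was 12.91, 13.09 and 13.27 in mutant ducts and 11.86, 12.11 and 12.25 in control ducts. Every mutant array was above every control array, with 0.66 between the nearest pair, and the arrays within a group spanned 0.37 and 0.39. The fold change was 2.02 (95% interval 1.52 to 2.68), or 1.02 ± 0.18 (SE) on the log2 scale, with a limma adjusted p of 0.0162. The direction held in each fit with 1 array left out (log2 fold change 0.91 to 1.11), but the call was lost without mutant 2 (adjusted p = 0.0547), mutant 3 (0.0600), control 1 (0.0760) or control 2 (0.0552). Without control 3, the array with the urothelial signal, it was called (1.10, adjusted p = 0.0226).

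Macrophage markers and immediate early and heat shock genes separated the same arrays. Smooth muscle markers did so narrowly by their summed signal but not by their mean log2 signal. At the adjusted p of 0.05, 2.59% of all rows rose. Of 9 macrophage markers 6 rose, and their summed linear signal was 19038 to 25346 in mutant ducts and 10201 to 10505 in control ducts. Of 13 immediate early and heat shock genes, which tissue handling can induce, 5 rose (3 without mutant 1 or control 2). Without control 3, Junb and Dusp1, named after their values were seen, were called as higher as well. The sums of the 13 genes were 25722 to 30499 in mutant ducts and 9826 to 18630 in control ducts. Of 6 smooth muscle markers 1 rose (3 without control 3), Tagln, by 2.92 on the log2 scale (adjusted p = 0.00108). Actg2, Myh11, Des, Acta2 and Cnn1, named after their values were seen, had log2 fold changes of -2.16, -1.21, -0.31, 2.00 and 1.39. None of these passed over all arrays (adjusted p = 0.572, 0.710, 0.405, 0.191 and 0.654). Acta2 and Cnn1 were the further rises called without control 3. Myh11 was at 12.58 in control 3, against 6.70 and 7.61 in control 1 and control 2, and Actg2 at 15.15 against 7.19 and 11.26. The sums of the 6 markers were 249825 to 282247 in mutant ducts, and 21329, 66394 and 247613 in control 1, control 2 and control 3. Acta2 had the highest signal of the 6 on every array, so it weighs most in these sums. Their mean log2 signal was 11.35 to 11.80 in mutant and 9.22 to 13.30 in control ducts. None of the macrophage or smooth muscle markers was below background on every array, and 1 of the immediate early genes, Junb, was. The 5 mesenchymal genes of the duct, Amhr2 included, had a mean log2 signal of 10.68 to 11.39 in mutant and 12.03 to 12.38 in control ducts. Their sums overlapped, at 35806 to 63451 and 62967 to 82826. The 7 epithelial genes had sums of 4001 to 7301 in mutant and 8100 to 10725 in control ducts. Their mean log2 signal overlapped, at 8.14 to 9.07 and 8.60 to 9.02. The part of these groups in the Asns difference, or in any other difference below, was not tested. In RNA of a whole duct, fewer cells of a type and less RNA per cell cannot be told apart.

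Atf4 mRNA itself was at 13.16, 13.46 and 13.12 in mutant ducts, and at 13.02, 12.56 and 13.07 in control ducts. The groups did not overlap, but the nearest arrays were 0.05 apart and the controls spanned 0.51. The log2 fold change of 0.37 ± 0.20 (SE) did not pass the test (adjusted p = 0.432), and its 95% interval, from -0.08 to 0.81, holds both no change and a rise as large as 1.75-fold.

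Ddit3 encodes CHOP, a transcription factor that promotes cell death under lasting stress, and Trib3 encodes a pseudokinase that CHOP and ATF4 induce and that holds ATF4 in check. Neither passed the test. Ddit3 was at 9.31, 9.32 and 9.13 in mutant ducts and at 9.58, 9.10 and 9.38 in control ducts. The groups overlapped, with a log2 fold change of -0.10 ± 0.18 (SE, adjusted p = 0.845) and a 95% interval from -0.51 to 0.30. The second Ddit3 row gave 7.54, 7.22 and 7.50 in mutant ducts against 7.39, 7.39 and 7.30 in control ducts. Its log2 fold change was 0.06 ± 0.16 (adjusted p = 0.911), so the rows differed in sign, and both intervals included 0.

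Trib3 lay close to background. It was at 6.14, 5.69 and 5.78 in mutant ducts and at 6.04, 6.09 and 5.99 in control ducts. Mutant 2 and mutant 3 were below the background of their array and no control was. The log2 fold change was -0.17 ± 0.18 (SE, adjusted p = 0.718), and background limits how large a fall it could show.

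Phgdh and Psat1 encode the enzymes of the first and second steps from 3-phosphoglycerate to serine. Phgdh was at 10.88, 11.02 and 10.96 in mutant ducts and at 10.77, 10.98 and 10.57 in control ducts. Control 2 lay inside the range of the mutants, and the log2 fold change was 0.18 ± 0.17 (SE, adjusted p = 0.681). Psat1 was at 13.11, 13.06 and 12.34 in mutant ducts and at 12.90, 13.34 and 12.79 in control ducts.

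Mutant 3 held the lowest Psat1 signal of all 6 arrays, and the other 2 mutant arrays lay between the controls. The log2 fold change of Psat1 was -0.17 ± 0.25 (SE, adjusted p = 0.811) and 0.08 without mutant 3. The upper ends of the 95% intervals were 0.57 for Phgdh and 0.39 for Psat1, each below the lower end of 0.61 for Asns, and the difference between these genes was not itself tested.

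**Figure D2:**
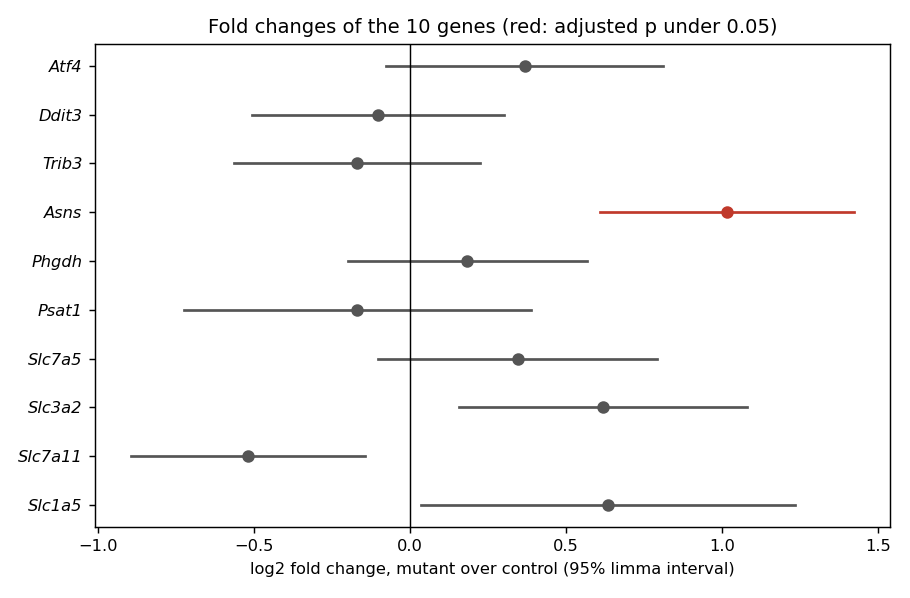
Log2 fold change of mutant over control ducts for the 10 genes, with 95% limma intervals. Asns (red) passed an adjusted p of 0.05, the intervals of Slc3a2, Slc1a5 and Slc7a11 leave out 0 without passing it, and the other 6 intervals include 0.

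Slc3a2 encodes CD98hc, the heavy chain that carries several SLC7 transporters to the cell surface. Slc7a5 encodes its partner LAT1, which exchanges large neutral amino acids such as leucine, and Slc7a11 its partner xCT, which imports cystine in exchange for glutamate. Slc1a5 encodes ASCT2, which takes up glutamine and small neutral amino acids without a heavy chain. None of these 4 passed the test.

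The heavy chain Slc3a2 was at 15.54, 15.50 and 15.28 in mutant ducts and at 14.91, 14.45 and 15.11 in control ducts. All mutant arrays were above all control arrays, by 0.17 at the nearest, while the controls spanned 0.67. Its fold change was 1.53 (95% interval 1.11 to 2.11; log2 0.62 ± 0.20, SE), with an unadjusted p of 0.0141 and a limma adjusted p of 0.175. Over the alternatives tried the adjusted p ran from 0.0631 to 0.385.

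Slc1a5 was at 10.34, 9.82 and 10.08 in mutant ducts and at 9.01, 10.02 and 9.29 in control ducts. Control 2 was above mutant 2, so the groups overlapped, and the controls spanned 1.01. The log2 fold change was 0.63 ± 0.27 (SE), with an adjusted p of 0.298, and it was 0.92 without control 2 (adjusted p = 0.0906) and 0.42 without control 1 (0.594).

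LAT1's gene Slc7a5 was at 11.41, 11.72 and 11.21 in mutant ducts and at 11.25, 10.83 and 11.23 in control ducts. Mutant 3 lay between the controls. The log2 fold change was 0.34 ± 0.20 (SE, adjusted p = 0.472), with a 95% interval from -0.10 to 0.79.

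Slc7a11, whose promoter holds both matches shown above, had the lowest value of the 10 log2 fold changes. It was at 5.09, 5.03 and 4.88 in mutant ducts and at 5.58, 5.33 and 5.65 in control ducts. The mutant arrays were all below the control arrays, but 3 of 3 mutant and 2 of 3 control arrays were below background. The log2 fold change of -0.52 ± 0.17 (SE) did not pass (adjusted p = 0.165), and at a signal below background its size cannot be read as that of a change in mRNA.

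Partners were then set against each other within each array, as the difference of their log2 signals, which shows unequal change and not which of the genes changed. For 4 pairs an exact two-sided permutation test over the arrays was used, in which 3 against 3 cannot give a p below 0.1, so no pair could pass. Slc7a11 minus Slc3a2 was 1.14 lower in mutant than in control ducts on the log2 scale (exact p = 0.1, adjusted over 4 pairs 0.2), but Slc7a11 was below background on 5 of 6 arrays, so the size of this difference cannot be read as that of a change in its mRNA. Ddit3 minus Atf4 averaged -4.00 ± 0.15 in mutant and -3.53 ± 0.14 in control ducts (SD, n = 3 each), a difference of -0.47 with the same exact p of 0.1. Slc7a5 minus Slc3a2 differed by -0.27 (exact p = 0.2) and Psat1 minus Phgdh by -0.35 (exact p = 0.3), or -0.10 without mutant 3.

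Within groups the 10 genes did not move as a block. Among the controls, control 2 was the lowest of 3 for Atf4, Ddit3, Slc7a5, Slc7a11 and Slc3a2 and the highest for Trib3, Psat1, Phgdh and Slc1a5. Among the mutants, mutant 3 was the lowest for 6 genes, Atf4 and Slc3a2 included, and the highest for Asns. Over all rows, control 2 was the lowest control in 32.9% and the highest in 36.1%, and mutant 3 the lowest mutant in 36.0%.

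Further genes of the same pathway were read from lists of related function, of which 148 of 162 entries (cell type markers included) had a row. The lists were chosen with earlier results of these data known, so a share above that of all rows is not independent evidence. Among 14 other stress-response targets of ATF4, 4 rose and none fell, or 28.6% of the list against 3.26% of all rows, with a median log2 fold change of 0.44. The endoplasmic reticulum oxidase Ero1a, which is also known as a hypoxia-induced gene, was at 11.59, 11.28 and 11.84 in mutant ducts and at 9.26, 9.85 and 9.64 in control ducts. The groups were far apart, a 3.96-fold rise (log2 1.99 ± 0.21, SE; limma adjusted p = 0.00122). Stc2, which encodes a secreted stanniocalcin, was at 12.25, 12.29 and 11.59 in mutant ducts and at 10.72, 10.42 and 10.61 in control ducts (2.75-fold, adjusted p = 0.00696).

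Nupr1, a stress-induced nuclear protein, was at 10.22, 10.43 and 9.93 in mutant ducts and at 8.74, 8.93 and 8.60 in control ducts (2.70-fold, adjusted p = 0.00343). Eif4ebp1, which encodes the translation repressor 4E-BP1, was at 11.09, 10.91 and 11.06 in mutant ducts and at 9.99, 9.54 and 9.57 in control ducts (2.50-fold, adjusted p = 0.00428). All 4 genes kept their call in each fit with 1 array left out. The other 10 of the list did not pass, among them Ddit4 at 0.25, Atf3 at 0.44 and Vldlr at 0.15 on the log2 scale, named after their values were seen. Chac1, Sesn2 and Fgf21, outside the naming rule as well, were below background on every array.

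**Figure D3:**
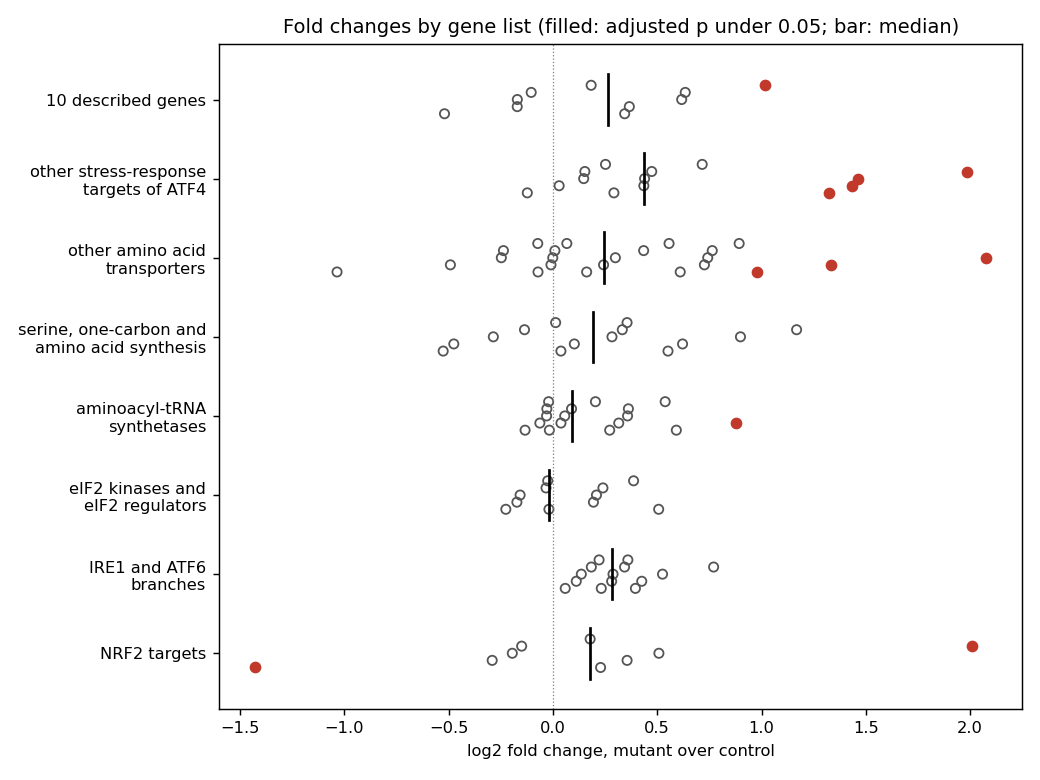
Log2 fold change of mutant over control ducts for each gene of 8 lists (points, filled red where the adjusted p was under 0.05; vertical bars, list medians). The 4 filled points of the other stress-response targets lie at 1.32 to 1.99, to the right of Asns in the top row at 1.02.

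Among 23 other amino acid transporters, 3 rose and none fell, or 13.0% of the list against 3.26% of all rows, with a median of 0.24. Slc7a8 encodes LAT2, a neutral amino acid exchanger that, like LAT1, pairs with the heavy chain of Slc3a2. It was at 13.45, 13.49 and 13.61 in mutant ducts and at 11.25, 11.16 and 11.91 in control ducts. That is a 4.22-fold rise (log2 2.08 ± 0.22, SE; adjusted p = 0.00108), with 1.54 between the nearest arrays of the groups, whereas the change of Slc7a5 was not called; the difference between the changes of these genes was not tested.

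The cationic amino acid transporters Slc7a1 and Slc7a2, which take up arginine and lysine, rose as well. Slc7a1 was at 10.67, 10.35 and 10.91 in mutant ducts and at 9.36, 8.97 and 9.59 in control ducts (2.52-fold, adjusted p = 0.0109). Slc7a2 was at 9.55, 9.16 and 9.45 in mutant ducts and at 8.51, 8.41 and 8.32 in control ducts (1.97-fold, adjusted p = 0.0154). The Slc7a1 call was lost without mutant 1 (adjusted p = 0.0518), and that of Slc7a2 in 4 of the 6 fits with 1 array left out (adjusted p up to 0.0739). Slc7a6 and Slc7a7, further partners of Slc3a2 named after their values were seen, had log2 fold changes of 0.74 and 0.89 that did not pass (adjusted p = 0.0586 and 0.0639). Slc7a8 was the single transporter of the list called without mutant 1. With dim rows left out, a trended prior or array weights the list had 5 to 7 rises, Slc7a6 among them each time. Slc1a2, a glutamate transporter also named after its value was seen, was below background on all mutant arrays. It was called as lower with array weights or without control 3.

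**Figure D4:**
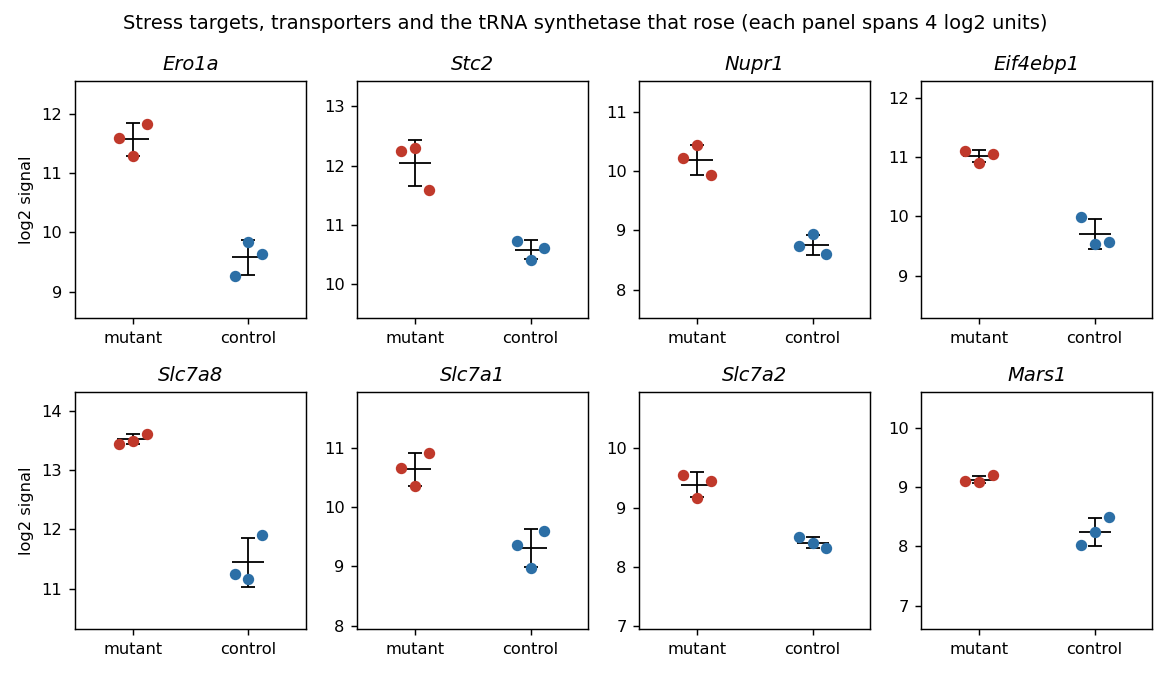
Log2 signal by array of the called stress-response targets, transporters and tRNA synthetase, with mutant ducts in red and control ducts in blue (points, 1 array each; bars, mean and SD, n = 3; each panel spans 4 log2 units). The genes are shown because they were called as higher. In all 8 panels every mutant array is above every control array, which also held for 10.9% of all rows.

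Enzymes of serine, one-carbon and nonessential amino acid synthesis other than Asns, Phgdh and Psat1 gave no call among 14 measured in limma. An unadjusted p under 0.05 was reached by 5 of them, against 15.3% of all rows. Mthfd2, the mitochondrial folate enzyme, had the smallest p, with 8.72, 9.05 and 8.83 in mutant ducts against 8.29, 8.15 and 8.29 in control ducts. Its log2 fold change was 0.62 ± 0.16 (SE, adjusted p = 0.0895), and it passed in a fit limited to the brighter rows, those at or above the median of mean signal (adjusted p = 0.0361). The list's median was 0.19. Got1, an aspartate aminotransferase named after its value was seen, differed by 1.17 ± 0.32 (SE) on the log2 scale without passing, and it was called with the replicate number as a block and without control 3.

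Of 17 cytosolic aminoacyl-tRNA synthetases, which charge tRNAs with amino acids and include known ATF4 targets, 1 rose and none fell, with a median of 0.09. That is 5.88% of the list, against 3.26% of all rows. The called gene was Mars1, whose enzyme charges methionine, at 9.10, 9.08 and 9.20 in mutant ducts and 8.02, 8.24 and 8.49 in control ducts (1.84-fold, adjusted p = 0.0274). That call was lost in 5 of the 6 fits with 1 array left out (adjusted p up to 0.118).

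Upstream, none of 11 genes for eIF2 kinases, the exchange factor eIF2B and the phosphatase subunits passed in limma. An unadjusted p under 0.05 was reached by 1 of them, against 15.3% of all rows. That gene was the eIF2B subunit Eif2b2, with a log2 fold change of 0.51 ± 0.18 (SE, adjusted p = 0.206). The median of the list was -0.02. Phosphorylation of eIF2 is not read by an expression array.

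The IRE1 and ATF6 branches of the unfolded protein response run beside the ATF4 branch and raise chaperones of the endoplasmic reticulum. None of 14 genes passed in limma, and 3 had an unadjusted p under 0.05, against 15.3% of all rows. All 14 log2 fold changes were above 0, between 0.06 and 0.77. Their median was 0.28, against -0.01 over all transcript clusters. A shift of the list as a whole was not tested. Edem1, which takes part in the removal of misfolded glycoproteins, had the smallest p, with a mean of 10.05 ± 0.14 in mutant and 9.28 ± 0.25 in control ducts (SD, n = 3 each; log2 0.77 ± 0.18, SE; adjusted p = 0.0614). Edem1 passed without control 3 (adjusted p = 0.0373) and in 4 other alternatives.

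NRF2, the oxidative stress factor, also drives Slc7a11. Of 9 genes of its list, 1 rose and 1 fell, or 22.2% of the list against 3.26% of all rows, with a median of 0.18. Nqo1, a quinone reductase widely used as a readout of NRF2, was at 6.12, 6.57 and 6.70 in mutant ducts and at 7.98, 7.90 and 7.78 in control ducts. It fell by 1.43 on the log2 scale (SE 0.19, adjusted p = 0.00398), with the groups 1.08 apart at the nearest arrays. Malic enzyme Me1, which supplies NADPH, was at 10.37, 10.06 and 10.71 in mutant ducts and at 7.51, 8.13 and 9.48 in control ducts. It rose 4.03-fold (adjusted p = 0.0377), but the controls spanned 1.97 and the call was lost in 5 of the 6 fits with 1 array left out (adjusted p up to 0.141).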

How the data were processed

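The authors deposited log2 signals in a single table of 28846 rows, 1 column per array for 6 arrays. The submitters' processing notes name Transcriptome Analysis Console 4.0. The summarisation of probes and the normalization of arrays are not stated in the sources used here, and the values were used as deposited. Control rows (6546 probe-set controls, 63 ERCC spikes, 8 other spikes and 23 antigenomic background probes) were left out. The other 22206 rows, the transcript clusters, were fitted by genotype alone in limma 3.58.1 (lmFit and eBayes, R 4.3.3), with two-sided tests and Benjamini-Hochberg adjustment over all of them at 0.05. A signal under the median of an array's antigenomic probes is called below background. The platform's probe table gave 1 symbol to 19572 rows, older synthetase symbols were matched through RefSeq synonyms and gene IDs, and names follow the lists. The fit was tested on simulated data. The members and lists were chosen with earlier results of these data known. The text names all 10 genes, Lats1, Lats2, Amhr2 and, from each pathway list, up to 4 called genes per direction with the smallest p, or 1 gene where none was called, and other genes are marked as named after their values were seen. The labels call the samples biological replicates. Python 3.11.15 and matplotlib 3.10.9 drew the figures.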

Additional observations from a re-analysis of the deposited data

How the results depend on the processing

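Each count and each gene of the pathway lists named with its change was recomputed with arrays weighted by quality, put on a common median or quantile normalized, with a robust and trended prior, with a block for the replicate number, without dim or unnamed rows, at an adjusted p of 0.01 and with each array left out in turn. Of the 10 genes, 1 was called in the fit over all arrays, and between 0 and 1 with an array left out. At an adjusted p of 0.01 none of the 10 was called in limma, and 299 transcript clusters were. With an array left out, between 360 and 697 transcript clusters were called, with 360 without mutant 1, 384 without control 1 and 454 without control 2, against 723 over all arrays. The number of the 10 genes called stayed at 1 under the other alternatives, including the mean of both Ddit3 rows. With the replicate number as a block, 633 transcript clusters and 1 of the 10 genes were called. Correlations of the deviations of same-numbered arrays were 0.01, 0.04 and 0.00, and those of differently numbered arrays lay between -0.04 and 0.03. With 3 arrays a group, these values cannot show whether the numbers pair the samples. With 1 array left out, the log2 fold change of Psat1 ran from -0.31 to 0.078, turning sign without mutant 3, and that of Ddit3 ran from -0.23 to 0.011, turning sign without control 1. That of Vldlr ran from -0.067 to 0.35, turning sign without mutant 1, and none of the 3 was called. For the 4 differences between partners the direction held under both normalizations and with each array left out. The cause of these shifts was not tested. Trib3 and Slc7a11, and the rows below background, limit what the signal can show.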
